A study of Mus musculus with 17 samples.

Results

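The genes described here are 10 enzymes of fatty acid synthesis and desaturation, taken by gene symbol from a table of 31245 genes measured in mouse lung. All 10 were among the 26946 genes that passed the filter on low counts and were tested. Whole lung RNA was sequenced from 17 mice of 3 genotypes at the gene for PPARα, a nuclear receptor that fatty acids and perfluorooctanoic acid (PFOA) can activate. Wild type (WT) mice were Sv/129 mice bought from a vendor. PPARα null (KO) mice and humanized PPARα (KI) mice came from breeding pairs that joined the mouse PPARα null and the human PPARα allele. PFOA mice had 6.2 μg/mL PFOA in sucrose drinking water for 14 weeks, and vehicle mice had sucrose water. All were put at 6 weeks of age on a custom diet modelled on human intake. Each group had 3 libraries, 1 per mouse, except WT vehicle with 2.

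Cytosolic fatty acid synthesis starts from citrate. Acly cleaves it to acetyl-CoA, Acaca and Acacb carboxylate acetyl-CoA to malonyl-CoA, and Fasn builds palmitate from both with NADPH, part of which Me1 supplies. Elovl6 extends palmitate, Scd1 and Scd2 place a double bond in saturated chains, and Fads1 and Fads2 desaturate polyunsaturated chains. The pathway is driven by the transcription factor SREBP-1c (encoded by Srebf1) and by LXR, and in the lung alveolar type 2 cells use its products for surfactant phospholipid.

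The members' levels were highest for Scd1 and Scd2. In CPM (counts scaled to library size with TMM factors) per kilobase of merged exons, the median over the 17 libraries was 194.6 for Scd1, 102 for Scd2, 37.9 for Fasn and 27.3 for Acly. It was 13.4 for Fads1, 8.66 for Fads2, 8.09 for Me1, 7.06 for Acacb, 3.87 for Acaca and 1.23 for Elovl6. The ranges over libraries of neighbours in this order overlapped, for instance 46.7 to 335 for Scd1 and 33.1 to 154 for Scd2, except that Elovl6 (0.713 to 2.25) stayed below Acaca (2.74 to 6.04). Several members lie near each other in mm10. Scd1 (chr19:44394455-44407879, minus strand) and Scd2 (chr19:44293674-44306864, plus strand) lie close together, as do Fads1 (chr19:10182888-10196877, plus strand) and Fads2 (chr19:10062765-10101746, minus strand). Whether other genes lie between them was not looked at. The counts of Scd1 were not whole in 15 of 17 libraries, those of Scd2 in 17, and those of Me1, Acaca and Fasn in 17, 16 and 14. What made these counts fractional was not tested. The lowly measured relatives Scd3 and Scd4 had at most 1.61 and 3.69 CPM in a library.

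Acly (chr11:100476353-100528000), Acaca (chr11:84129672-84401651) and Fasn (chr11:120805846-120824547) lie on chromosome 11. Fasn and Acly were both higher in every KO PFOA library than in any KO vehicle library, and the 250 bases before their RefSeq starts (GRCm38.p6, minus strand) are shown to compare what lies there. RefSeq entries matched 7 of the 10 members (Acaca, Acacb, Acly, Elovl6, Fads2, Fasn and Me1). Capitals mark CCAAT or its reverse complement ATTGG, the letters that NF-Y, a partner of SREBP, recognizes. Fasn lies at chr11:120824548-120824797 and Acly at chr11:100528001-100528250.
Fasn: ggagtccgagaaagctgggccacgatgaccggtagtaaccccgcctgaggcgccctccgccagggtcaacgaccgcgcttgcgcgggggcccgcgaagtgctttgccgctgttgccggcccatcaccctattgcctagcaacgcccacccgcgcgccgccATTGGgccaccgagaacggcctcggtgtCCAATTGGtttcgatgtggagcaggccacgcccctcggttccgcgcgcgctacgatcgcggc
Acly: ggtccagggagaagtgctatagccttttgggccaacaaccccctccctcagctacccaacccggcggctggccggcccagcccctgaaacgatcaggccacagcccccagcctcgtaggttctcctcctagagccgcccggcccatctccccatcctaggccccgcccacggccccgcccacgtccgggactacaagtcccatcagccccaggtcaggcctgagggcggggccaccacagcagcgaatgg
The Fasn stretch held 3 matches, beginning 90, 62 and 59 bases before the start, of which the last 2 overlap each other. The Acly stretch held none. The Acaca and Acacb entries and the Me1 entry with a match begin at starts inside the genes. Among the other entries than Fasn, Acacb and 1 of the Me1 entries held 1 match each. CCAAT was present in 33.8% of the 32851 promoter entries of this length, so a match was common. The E-box CACGTG, which is its own reverse complement (6.02% of entries), and the sterol element TCACNCCAC or GTGGNGTGA (1.05%) were in no member's entry. These matches describe letters only.

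Total counts per library ran from 4116116 to 9237385, and protein-coding genes took 65.3% of them in WT vehicle 122 and 61.3% in KO vehicle 137 against 74.4% to 80.4% in the other 15. Both libraries were also low for alveolar type 2 markers, as given below. Ppara itself was at 8.82 to 11.8 CPM in the libraries labelled KO, above the 4.39 to 7.21 CPM of WT, so KO and KI stand for the labels. All KO mice were female, and WT and KI groups mixed sexes.

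In the libraries labelled KO, PFOA went with higher Scd1, Fasn and Acaca. The mean of Scd1 was 1473.9 ± 141 CPM (SD, n = 3) on PFOA and 503.6 ± 260.2 on vehicle, that of Fasn 602 ± 97.9 and 305 ± 106, and that of Acaca 87.6 ± 13.7 and 55.31 ± 4.1. For 6 members (Acly, Acaca, Fasn, Scd1, Scd2 and Fads1) each KO PFOA library lay above each KO vehicle library, which was so for 6.82% of all genes tested. None of the 10 was called at an adjusted p under 0.2 with a fold over 2 in edgeR's quasi-likelihood fit (p-values adjusted by Benjamini and Hochberg's method), as for all genes (0% called). At an unadjusted p under 0.05, 5 were higher, against 3.74% of all genes. DESeq2 called 1 of the 10, Scd1, with a log2 fold change of 1.52 and an adjusted p of 0.139, where it called 0.252% of all genes. The median log2 fold change was 0.49 over the members and -0.03 over all genes, and all 10 estimates were above 0.

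**Figure D1:**
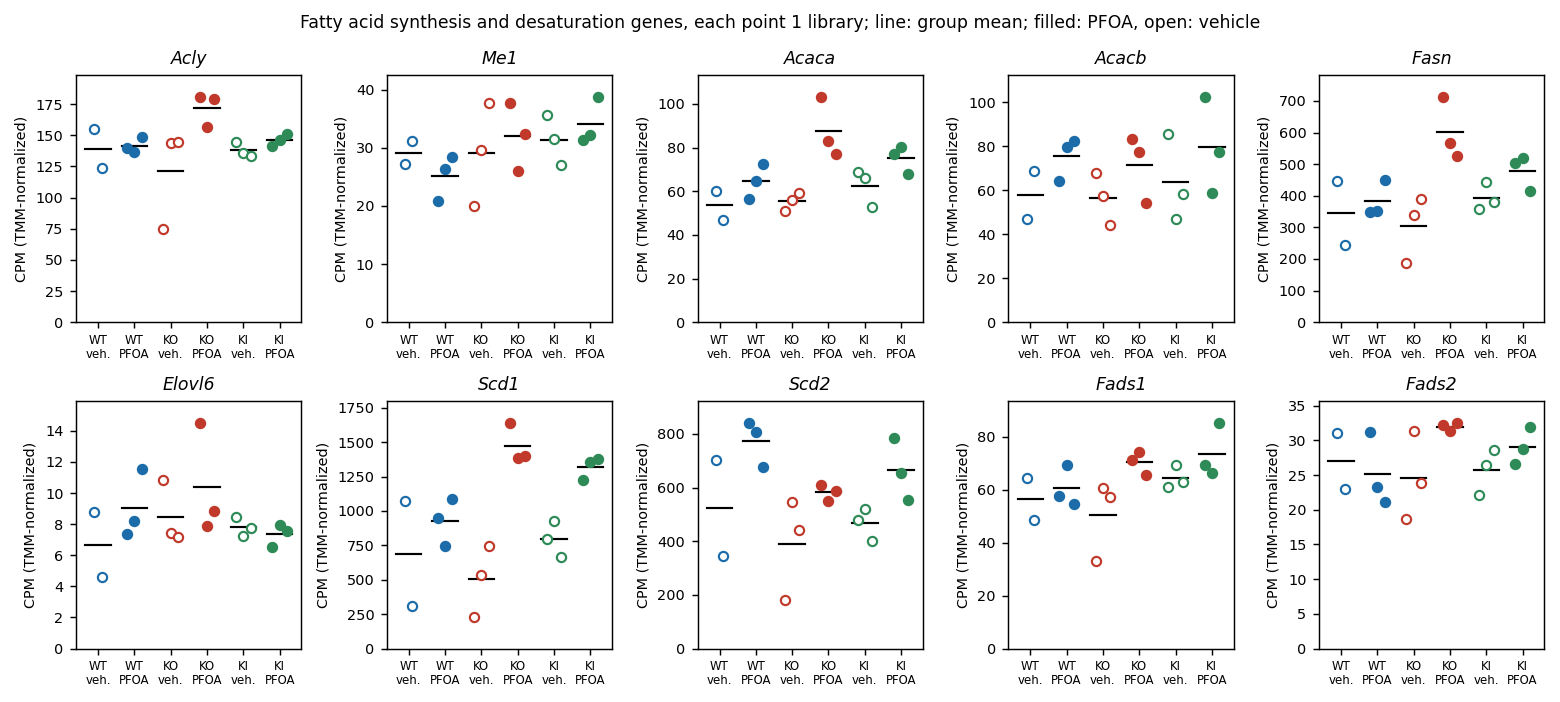
TMM-normalized CPM (axes from 0) of the 10 genes in each of the 17 libraries, open points for vehicle and filled points for PFOA, with the group mean as a line. The 3 KO PFOA libraries of Scd1 lie between 1385 and 1637 CPM, above every vehicle library of any genotype, while Me1, Acacb, Elovl6 and Fads2 overlap within every genotype.

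Acly was at 75.1, 144 and 144 CPM in KO vehicle libraries 137, 145 and 149 and at 181, 157 and 179 CPM in KO PFOA libraries 52, 154 and 155. The groups did not overlap, and library 137 was the lowest by far. The log2 fold change was 0.50 ± 0.18 (SE), with an adjusted p of 0.477 (edgeR), and 0.26 without that library. In WT, Acly was at 155 and 124 CPM on vehicle and at 140.1, 136 and 148 on PFOA, inside the vehicle range (log2 0.02 ± 0.21). In KI, it was at 145, 136 and 133 on vehicle and 142, 146 and 151 on PFOA (log2 0.09 ± 0.18).

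Me1, the malic enzyme that yields NADPH, overlapped between exposures in each genotype. It was at 27.2 and 31.1 CPM in WT vehicle and 20.8, 26.3 and 28.4 in WT PFOA, with a log2 fold change of -0.21 ± 0.23. In KO it was at 20.04 to 37.7 CPM on vehicle and 26.1 to 37.7 on PFOA, and in KI at 26.99 to 35.7 and 31.3 to 38.7. Over the genotypes the log2 fold change was 0.03 ± 0.12, the one nearest to 0 among the members, and it was below 0 without KO vehicle 137 (-0.04).

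The acetyl-CoA carboxylases differed in pattern. Acaca, the cytosolic form that feeds synthesis, was at 50.9, 56.0 and 59.0 CPM in KO vehicle and at 103, 82.9 and 76.8 in KO PFOA. This gap did not depend on library 137, whose value was close to the other vehicle libraries. The log2 fold change was 0.66 ± 0.15 (adjusted p = 0.434 with edgeR and 0.139 with DESeq2), and 0.61 with WT vehicle 122 and KO vehicle 137 both left out. In WT, Acaca was at 60.1 and 46.8 CPM on vehicle and 56.6, 64.8 and 72.5 on PFOA (log2 0.27 ± 0.17), and in KI at 68.8, 66.1 and 52.9 against 77.0, 80.3 and 67.8 (log2 0.26 ± 0.15). PFOA and vehicle overlapped in both. Acacb, whose malonyl-CoA restrains fatty acid entry into mitochondria, ranged from 44.2 to 68.0 CPM in KO vehicle and from 54.0 to 83.2 in KO PFOA. The WT log2 fold change was 0.38 ± 0.27, the KO value 0.35 ± 0.24 and the KI value 0.33 ± 0.24, and the libraries overlapped each time. These values moved with single libraries. WT gave 0.13 without library 107 and 0.69 without 122, and KI gave 0.10 without PFOA library 57 and 0.60 without vehicle library 102. With the number in the library code as a covariate the KO value was -0.21.

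Fasn, the synthase, was at 187, 338 and 391 CPM in KO vehicle and at 712.1, 566 and 526 in KO PFOA, with no overlap. The log2 fold change was 0.98 ± 0.25 (adjusted p = 0.434 with edgeR and 0.121 with DESeq2), just under the fold of 2. In KI it was at 358, 443.7 and 380.3 CPM on vehicle and 503.5, 519 and 415 on PFOA, overlapping by 1 library pair (log2 0.28 ± 0.24). In WT it was at 446 and 243 CPM on vehicle and 348, 353 and 451 on PFOA. The WT vehicle libraries lay on both sides of PFOA libraries 50 and 56, and the WT value of 0.16 ± 0.27 became -0.21 without library 122. Elovl6, the elongase of palmitate, had the lowest level of the 10, at 4.59 to 14.5 CPM. Its largest value was in KO PFOA 52, and the KO log2 fold change of 0.31 ± 0.28 was -0.01 without it.

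Scd1, the stearoyl-CoA desaturase with the highest level here, was at 228.5, 536.5 and 746 CPM in KO vehicle libraries 137, 145 and 149. It was at 1637, 1385 and 1400.0 CPM in KO PFOA libraries 52, 154 and 155, so the lowest exposed library was well above the highest vehicle library. The log2 fold change was 1.55 ± 0.37 (2.92-fold, adjusted p = 0.434 with edgeR). Without WT vehicle 122 and KO vehicle 137 it was 1.201. In KI, Scd1 was at 798.5, 927 and 668 CPM on vehicle and 1224, 1357 and 1377.5 on PFOA, again with no overlap (log2 0.73 ± 0.37, adjusted p = 1, edgeR). In WT it was at 1069 and 307 CPM on vehicle and 952, 745 and 1090.0 on PFOA. The vehicle libraries enclosed 2 of the 3 exposed ones, and the WT estimate was 0.43 ± 0.41. Leaving out library 122 turned it to -0.20, and leaving out library 107 gave 1.60. Each of these fits has 1 WT vehicle library, and without 107 it is library 122, with 65.3% of its counts in protein-coding genes.

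Scd2, the paralogous desaturase, had a smaller estimate than Scd1 in KO and like estimates in the 3 genotypes. It was at 181, 546 and 443 CPM in KO vehicle and 610.4, 549.9 and 586 in KO PFOA (log2 0.58 ± 0.30), and 0.23 without library 137. In KI it was at 481, 520.5 and 402 CPM on vehicle and 784, 656 and 556 on PFOA, with no overlap (log2 0.51 ± 0.30). In WT it was at 703.4 and 343.5 CPM on vehicle and 839.6, 807 and 675 on PFOA (log2 0.56 ± 0.34). Leaving out library 122 gave 0.14, and leaving out library 107 gave 1.17, each with 1 WT vehicle library.

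Fads1, a desaturase of polyunsaturated chains, was at 33.2, 60.5 and 57.4 CPM in KO vehicle and 71.1, 74.4 and 65.6 in KO PFOA. The groups did not overlap, with a log2 fold change of 0.47 ± 0.19 (adjusted p = 0.483, edgeR) and 0.26 without library 137. In WT (48.6 to 64.6 on vehicle, 54.6 to 69.4 on PFOA) and KI (61.0 to 69.2 and 66.3 to 85.1) the libraries overlapped. Fads2, which acts before Fads1 in the same route, was at 18.7, 31.4 and 23.9 CPM in KO vehicle and at 32.2, 31.3 and 32.5 in KO PFOA, where one vehicle library was level with the exposed ones (log2 0.37 ± 0.19). Its WT value was -0.10 ± 0.21 and its KI value 0.18 ± 0.19.

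**Figure D2:**
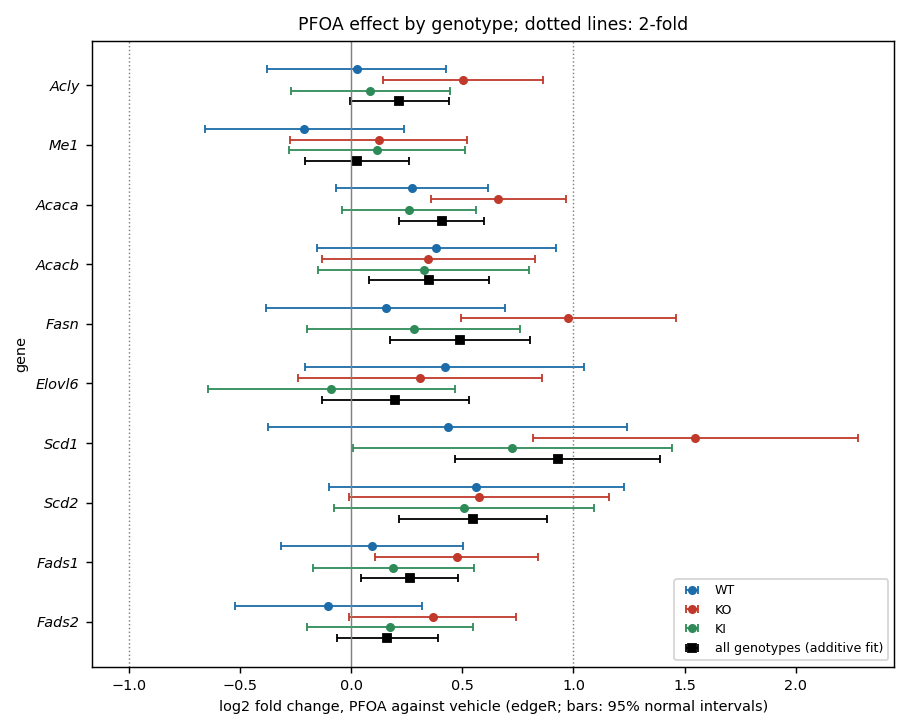
Log2 fold change of PFOA against vehicle for each gene (rows) in WT, KO and KI and over all genotypes, with bars of 95% normal intervals from edgeR standard errors and dotted lines at 2-fold. Within genotypes, Scd1, Fasn and Acaca in KO stand farthest from 0 relative to their bars, at 1.55, 0.98 and 0.66. Over all genotypes, Me1 is the gene nearest to 0, at 0.03, and in WT it is at -0.21.

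In WT, 8 of the 10 estimates were above 0, none had an unadjusted p under 0.05 in either direction (3.12% of all genes were higher at it), none was called by edgeR or DESeq2 (0% and 0.0891% of all genes), and for none did all PFOA libraries lie above the vehicle libraries (11.6% of all genes). The member median was 0.21 against 0.04 over all genes, and -0.10 without WT vehicle 122 and KO vehicle 137. In KI, 9 of the 10 were above 0 with a median of 0.23 against 0.01 over all genes. None was called by edgeR or DESeq2 (0% and 0.00371% of all genes), none had an unadjusted p under 0.05 (1.47% of all genes were higher at it), and Scd1 and Scd2 were the 2 members without overlap (4.45% of all genes). A lower share of a cell type in the tissue and less RNA per cell cannot be told apart in whole lung.

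Over the genotypes, in an additive fit of genotype and exposure, all 10 estimates were above 0 and 6 had an unadjusted p under 0.05, against 3.80% of all genes that were higher at it. They were Scd1 (0.93 ± 0.24), Acaca (0.41 ± 0.10), Scd2 (0.55 ± 0.17), Fasn (0.49 ± 0.16), Acacb (0.35 ± 0.14) and Fads1 (0.26 ± 0.11). Their adjusted p-values from edgeR ran from 0.385 to 0.549, and no member was called by edgeR or DESeq2 (0% and 0.0965% of all genes). With DESeq2, Acaca (adjusted p = 0.0576, 1.31-fold) and Scd1 (adjusted p = 0.153, 1.89-fold) were under 0.2 but short of the fold of 2. The other members were above 0.2. Without WT vehicle 107, which leaves 1 WT vehicle library, Scd1 was at 1.23. With each library left out in turn, Scd1 stayed between 0.78 and 1.23, Scd2 between 0.44 and 0.66, Fasn between 0.38 and 0.64 and Acaca between 0.35 and 0.46.

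**Figure D3:**
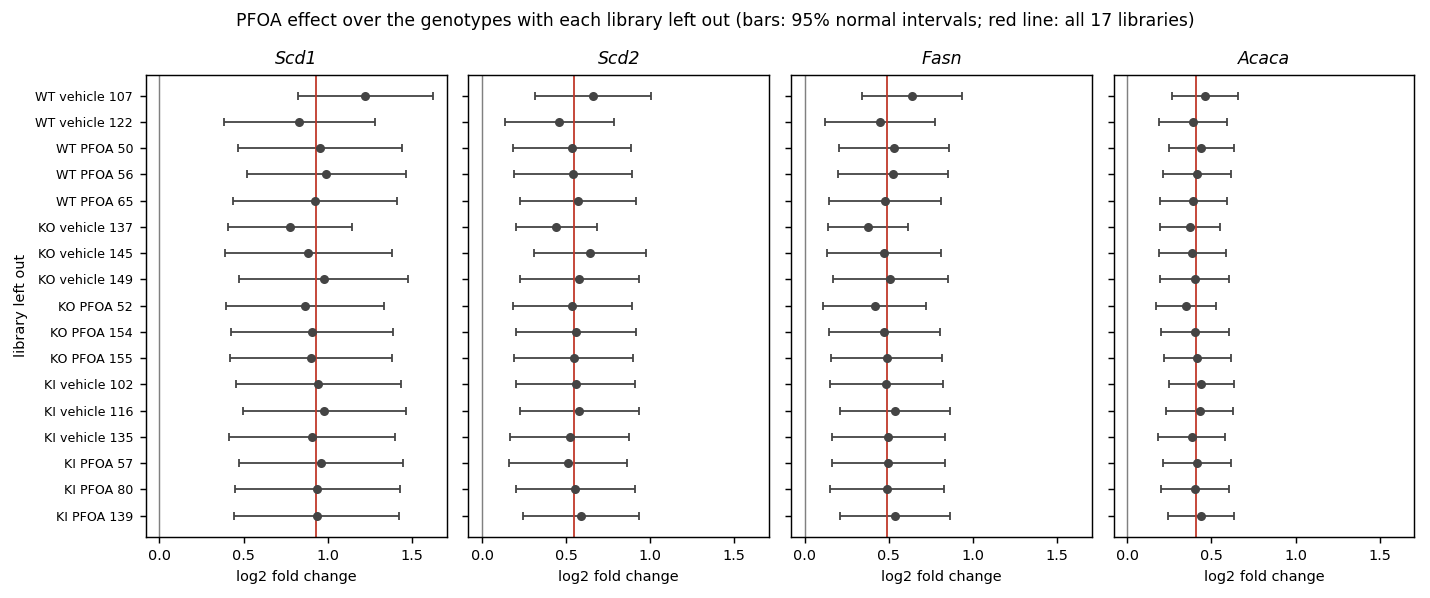
Log2 fold change of PFOA against vehicle over the genotypes for Scd1, Scd2, Fasn and Acaca when the library named on the vertical axis is left out, with bars of 95% normal intervals and a red line at the value from all 17 libraries. Every estimate is above 0, and Scd1 ranges from 0.78 (without KO vehicle 137) to 1.23 (without WT vehicle 107).

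Sex and the number in the library code were looked at as possible batches, with Scd1 as the example. With sex as a covariate Scd1 was 0.99 over the genotypes and 0.61 in WT. All KO mice were female, so a sex term could not change the KO value (1.55). With the library code Scd1 was 0.88 over the genotypes and 1.97 in KO, and none of these was past the call. No code holds both exposures in KO, so that KO value takes its adjustment from WT and KI libraries. Within a batch the libraries were too few for a test. Among WT females, Scd1 was at 1069 CPM on vehicle and 952 on PFOA, and among WT males at 307 on vehicle and 745 and 1090.0 on PFOA. Among KI females it was at 927 and 668 CPM on vehicle and 1357 and 1377.5 on PFOA, and in males at 798.5 and 1224. By code, KI libraries 116 and 80 share one number and libraries 135 and 139 another, and Scd1 was higher on PFOA in both pairs. In WT, PFOA library 65 (1090.0 CPM) shares its number with both vehicle libraries (1069 and 307). All KO PFOA libraries carry one number and no KO vehicle library does, so within KO the code and the exposure cannot be told apart.

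The PFOA effects did not differ between genotypes past the call for any member. The KO effect exceeded the WT effect by 0.82 ± 0.37 (log2, SE) for Fasn (adjusted p = 0.669, edgeR) and by 1.11 ± 0.54 for Scd1 (adjusted p = 0.669, edgeR). Fasn was the 1 member with an unadjusted p under 0.05 there (2.56% of all genes were higher at it), and 0 members were called by edgeR (0% of all genes) or DESeq2 (0.0111%). The KI effect was below the KO effect by edgeR for each of the 10 members, at -0.69 ± 0.35 for Fasn and -0.82 ± 0.52 for Scd1. By edgeR none had an unadjusted p under 0.05 and none was called (0% of all genes). DESeq2 put 8 of 10 below and called none (0.0111% of all genes), with Fasn alone at an unadjusted p under 0.05 (0.0441). These 2 sets of differences share the KO libraries. The KI effect against the WT effect was 0.29 ± 0.55 for Scd1, with none of 10 members under an unadjusted p of 0.05 and none called by edgeR (0% of all genes) or DESeq2 (0.00371%).

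Between genotypes at equal exposure, no member was called. Against WT, KO libraries had Acaca 0.27 ± 0.12 higher on the log2 scale (adjusted p = 0.344, edgeR). By edgeR it was the 1 member with an unadjusted p under 0.05, where 7.43% of all genes were higher at it. Scd2 was -0.42 ± 0.21 (adjusted p = 0.415, edgeR), with an unadjusted p of 0.0590 by edgeR and 0.0446 by DESeq2. Of all genes, 2.36% were called in KO against WT and 1.37% in KI against WT, and of the members 0 in each by edgeR and by DESeq2, which called 2.97% and 1.70% of all genes. In KI against WT, Scd1 was 0.39 ± 0.29 and Me1 0.29 ± 0.15, and no member had an unadjusted p under 0.05. In KI against KO, mice of one colony, no member was called by edgeR (0.00742% of all genes) or DESeq2 (0.0371%), none had an unadjusted p under 0.05, and Fasn differed by 0.00 ± 0.19. WT mice came from a vendor, so genotype and source cannot be told apart in the comparisons with WT.

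Scd1, Fasn and Acaca varied together over the libraries. Pearson's r of log2(CPM + 0.5) over 17 libraries was 0.94 for Fasn with Scd1, 0.88 for Acaca with Fasn and 0.85 for Acly with Scd1 (0.91, 0.90 and 0.86 as Spearman's rho), values that describe these libraries, which share groups and depth. Scd1 with Acacb gave 0.13 and with Elovl6 0.29. Without WT vehicle 122 and KO vehicle 137, Fasn with Scd1 was 0.85, Acacb with Scd1 0.31 and Elovl6 with Scd1 0.41. Of 10559 genes with a mean of at least 10 CPM, the 5 most like Scd1 were Lpcat3 (0.95), an acyltransferase of phospholipid remodelling, Fasn (0.94), Mid1ip1 (0.93), an activator of acetyl-CoA carboxylase, Ly6e (0.91) and Ifitm3 (0.90). Those most like Fasn were Scd1 (0.94), Ifitm3 (0.92), Il33 (0.91), Nsf (0.90) and Lpcat3 (0.90). Without the same 2 libraries these values fell to between 0.71 and 0.85.

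**Figure D4:**
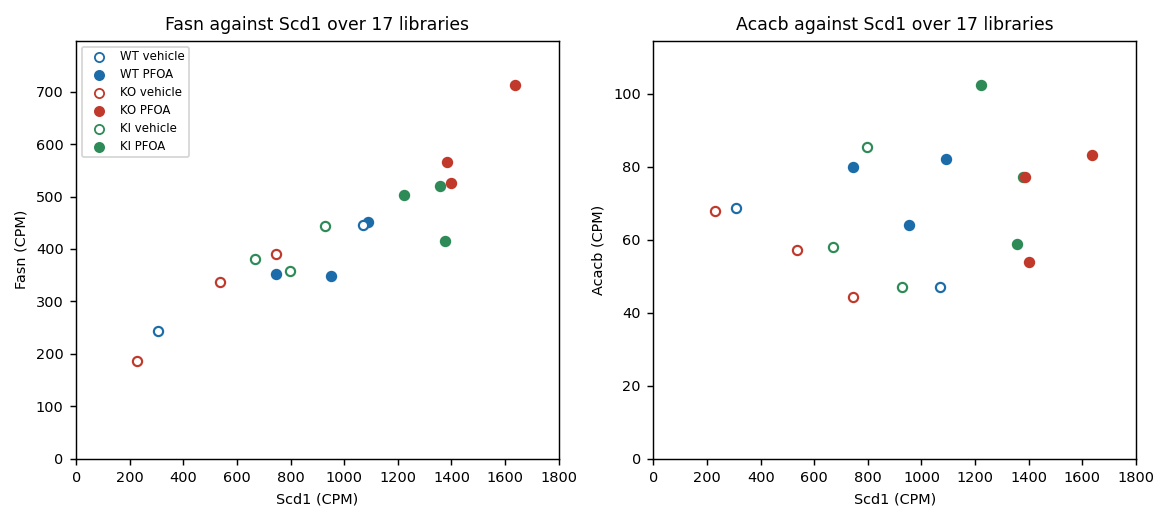
CPM of Fasn (left) and Acacb (right) against CPM of Scd1 in each of the 17 libraries, open points for vehicle and filled for PFOA, both axes linear from 0. Fasn follows Scd1 from KO vehicle 137 (228.5 CPM of Scd1, 187 of Fasn) to KO PFOA 52 (1637 and 712.1), while Acacb spreads more widely around Scd1 (Pearson's r of 0.13 on the log2 scale).

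None of the genes in the lists of the wider pathway was called over the genotypes. Of 18 lipogenic regulators tested, 0 were called over the genotypes by edgeR or DESeq2, and 3 were higher at an unadjusted p under 0.05 (3.80% of all genes). Srebf1, which encodes SREBP-1, was at 48.6, 58.4 and 54.6 CPM in KO vehicle and 77.3, 74.7 and 67.6 in KO PFOA, without overlap. It was at 68.7 and 60.8 in WT vehicle and 82.9, 72.5 and 67.5 in WT PFOA, and in KI at 62.8 to 69.7 on vehicle and 77.3 to 80.4 on PFOA, again without overlap. Over the genotypes Srebf1 was 0.30 ± 0.07 on the log2 scale (adjusted p = 0.385, edgeR), and Mid1ip1 was 0.34 ± 0.12 (adjusted p = 0.484, edgeR). The median of the regulators was 0.10 over the genotypes.

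In the next 3 lists, too, the share of all genes higher at an unadjusted p under 0.05 was 3.80%. Of 10 genes of acetyl-CoA and NADPH supply, 0 were called by edgeR or DESeq2. Only G6pdx of the pentose phosphate pathway (0.27 ± 0.12), 1 of the 10, was higher at an unadjusted p under 0.05. Me2, the mitochondrial malic enzyme, was 0.17 ± 0.11. Of 20 other elongation and desaturation genes tested (21 listed), 0 were called by either tool and 1 was under an unadjusted p of 0.05, Elovl5, an elongase of polyunsaturated chains (0.31 ± 0.15), with Degs1, a ceramide desaturase, at 0.26 ± 0.15. Of 16 genes of fatty acid activation and glycerolipid synthesis, 0 were called by either tool and 1 was under it, Lpin1, a phosphatidate phosphatase (0.36 ± 0.16), with Acsl3, an acyl-CoA synthetase, at -0.22 ± 0.11. The medians of these 3 lists were 0.06, 0.12 and 0.01. Between genotypes, Elovl7, an elongase, was lower by 1.52 on the log2 scale in KO against WT (adjusted p = 0.00129, edgeR) and by 1.15 in KI against WT (adjusted p = 0.0164, edgeR). Counts at mouse Ppara were higher in KI than in WT by 1.29 (adjusted p = 0.000577, edgeR). They were also higher in KO, at 8.82 to 11.8 CPM against 4.39 to 7.21 in WT. Reads were aligned to mm10, and which allele the counts in KO and KI came from was not tested. In these comparisons genotype and source of the mice cannot be told apart.

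Alveolar type 2 markers, like Scd1 and Fasn, were lowest in WT vehicle 122 and KO vehicle 137. How closely they went together in the other libraries was not measured. The 10 markers were all measured, with none at 0 in a library, and summed to 3521, 8706 and 10155 CPM in KO vehicle 137, 145 and 149 and to 10081 to 10453 in KO PFOA. They summed to 11092 and 5202 CPM in WT vehicle 107 and 122, 7487 to 8631 in WT PFOA, 7120.4 to 10038 in KI vehicle and 7819 to 11018 in KI PFOA. Surfactant gene Sftpc was at 677 CPM in KO vehicle 137 and 932 in WT vehicle 122 against 2040.3 to 3501 elsewhere. Over the genotypes all 10 were above 0 on PFOA with a median log2 fold change of 0.31. Of these, 0 were called by edgeR or DESeq2, and 1 was higher at an unadjusted p under 0.05 (3.80% of all genes). With the mean log2 level of these markers as a covariate, Scd1 over the genotypes was 0.65 ± 0.14 in place of 0.93, Fasn 0.27 ± 0.11 in place of 0.49, Scd2 0.31 ± 0.10 in place of 0.55 and Acaca 0.33 ± 0.09 in place of 0.41. In KO, Scd1 was then 1.04 ± 0.22 (adjusted p = 0.320, edgeR), Fasn 0.64 in place of 0.98 and Scd2 0.16 in place of 0.58. Scd1 was at 228.5, 536.5 and 746 CPM in KO vehicle 137, 145 and 149 and at 1385 to 1637 in KO PFOA. Markers of other cell types varied too. The 10 alveolar macrophage markers summed to 128 to 369 CPM in KO vehicle and 379 to 453 in KO PFOA, and to 213 to 289 and 303 to 415 in KI, without overlap, and to 196 and 404 in WT vehicle and 333 to 461 in WT PFOA. Of all genes taken singly, 6.82% in KO and 4.45% in KI were higher on PFOA without overlap. Over the genotypes all 10 macrophage markers were above 0, 0 were called by edgeR or DESeq2, and 3 were higher at an unadjusted p under 0.05 (3.80% of all genes). The 5 alveolar type 1 markers were at 782 CPM in KO vehicle 137 and 1277 in WT vehicle 122 against 1204 to 2117 elsewhere, and the 5 endothelial markers at 772 and 1037 against 1566 to 2060.2. Airway markers went the other way. The 5 club cell markers were at 25990 CPM in WT vehicle 122 against 4975 to 11922 elsewhere. The 5 ciliated cell markers were at 448 CPM in WT vehicle 122 and 335 in KO vehicle 137 against 183 to 331 elsewhere. The 6 cardiac muscle markers were at 1856 CPM in KO vehicle 137 against 271 and 329 in KO vehicle 145 and 149. The part of cell makeup in these differences was not tested further.

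**Figure D5:**
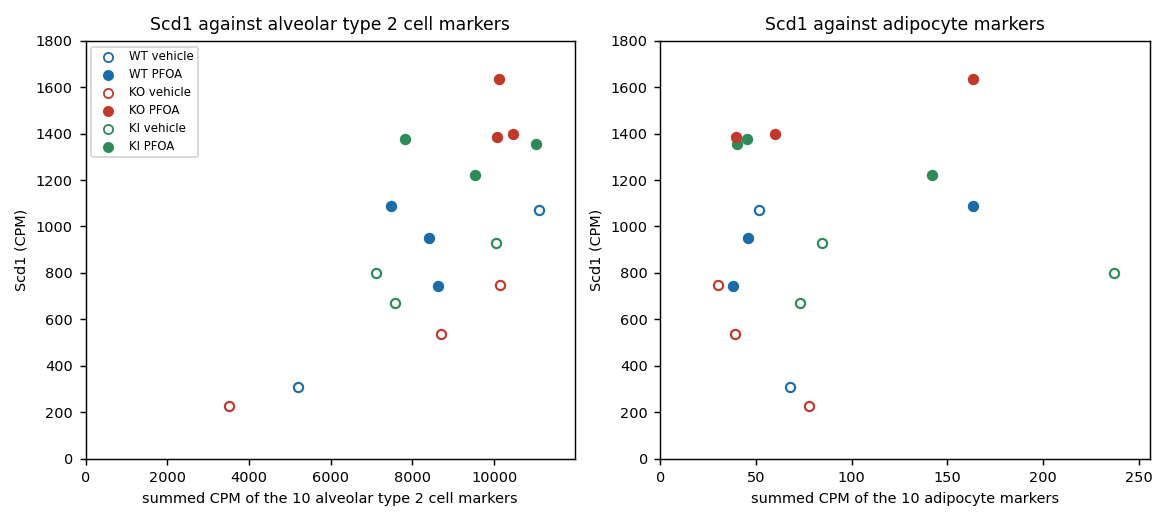
CPM of Scd1 against the summed CPM of 10 alveolar type 2 cell markers (left) and 10 adipocyte markers (right) in each of the 17 libraries, open points for vehicle and filled for PFOA. WT vehicle 122 and KO vehicle 137 are lowest on the left panel in both measures. On the right panel the KO PFOA libraries have 39.5 to 164 CPM of adipocyte markers and 1385 to 1637 CPM of Scd1.

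Markers of adipocytes, another cell type rich in these enzymes, were high in some libraries. Which cells this RNA came from was not tested. The 10 adipocyte markers summed to 237 CPM in KI vehicle 102, 164 in WT PFOA 65 and KO PFOA 52 and 142 in KI PFOA 57, and to 30.3 to 84.4 in the other 13. Over the genotypes 7 of the 10 were above 0, 0 were called by edgeR or DESeq2, and 1 was lower at an unadjusted p under 0.05. In KO, 8 of the 10 were above 0 and 3 (Adipoq, Cfd and Ucp1) were higher at an unadjusted p under 0.05 (3.74% of all genes), with 0 called by edgeR or DESeq2. Adipoq was at 11.5 CPM in KI vehicle 102 and at 0 in 3 libraries. Plin4 alone was at 102, 72.1, 44.5 and 80.6 CPM in KI vehicle 102, WT PFOA 65, KO PFOA 52 and KI PFOA 57. The 6 cardiac muscle markers summed to 6922, 3960, 1661 and 5878 CPM in the same libraries, and to 271 to 2194 in the other 13. Without the 3 libraries highest in adipocyte markers, Scd1 over the genotypes was 0.86 ± 0.27 and Fasn 0.38 ± 0.18, and Scd1 in KO was 1.45 ± 0.44. KO PFOA 52, 154 and 155 had 164, 39.5 and 60.0 CPM of adipocyte markers and 1637, 1385 and 1400.0 CPM of Scd1. What part this RNA had in the Scd1 values was not tested further. The 3 hepatocyte markers tested (5 listed) summed to at most 4.61 CPM.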

How the data were processed

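RNA sequencing libraries of whole lung from 17 mice were analysed. The authors made stranded total RNA libraries, trimmed the reads, aligned them to mm10 with STAR (2.6 per the submitters' processing notes) in Partek and deposited estimated counts per gene from an expectation-maximization model, without normalization. The annotation release and the use of strand in counting are not given in the sources used here. The counts, of which 31.3% were not whole at a tolerance of 0.01, were rounded. The 26946 of 31245 genes that reached 20 counts in all (4299 did not) were fitted with edgeR 4.0.16 (R 4.3.3) by quasi-likelihood with TMM factors over all 6 groups, or additively in genotype and exposure. P-values were adjusted over all genes tested, and a call was an adjusted p under 0.2 and a fold over 2, the study's thresholds. DESeq2 1.42.0 and the other settings given in the closing section were alternatives. The fits were tested on simulated data.

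CPM values are TMM-normalized. Depth was 4116116 to 9237385 counts per library (median 7524817), where 3 counts are 0.319 to 0.691 CPM, a limit of counting error only. The chi-square between replicate libraries was never below 5.75 times its degrees of freedom, so each counted as 1. The labels give 1 mouse per library. One WT vehicle sample is not analysed here. Named from the pathway lists were genes called in any comparison or, per list, the 2 with the smallest unadjusted p over the genotypes, and for likeness the 5 genes with the highest correlation with Scd1 and with Fasn. The members and the lists were chosen with earlier results of these data known. Members were placed with GENCODE M21, in which all 10 starts match the table. Overlapping genes held few counts (at most 131 in Gm37391 inside Acaca). Python 3.11.15, pandas 2.3.3 and matplotlib 3.10.9 were used.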

Additional observations from a re-analysis of the deposited data

How the results depend on the processing

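The alternatives were DESeq2, RLE factors, no filter, filterByExpr, robust estimation, a stricter threshold, sex, library code, an adipocyte score or an alveolar type 2 score as a covariate, WT vehicle 122 and KO vehicle 137 left out, each library left out, and, added after seeing the data, the 3 libraries highest in adipocyte markers left out and protein-coding genes only. Of the members' values, 1124 kept direction and side of the call, 31 changed direction and 5 passed the call. Scd1 in KO with DESeq2 was among these 5, in a fit that called 0.252% of all genes. The others were values of Scd1 and Scd2 from fits that left WT vehicle with 1 library. The share of all genes called in those fits was not counted, so they are not read as calls. Without libraries 122 and 137, WT log2 fold changes were -0.12 for Acly, -0.21 for Fasn, -0.20 for Scd1 and -0.0891 for Fads1, and Me1 in KO was -0.0729. With the alveolar type 2 score, Acly was -0.0372 in WT and -0.0283 in KI, and Me1 over the genotypes -0.0332. Without the 3 libraries highest in adipocyte markers, Acly in WT was -0.0104, Fads2 in WT 0.0110, Me1 -0.0212 in KO and -0.0226 over the genotypes, and Elovl6 in KO -0.0162. With the library code Acacb in KO was -0.21, with the adipocyte score Elovl6 in KI was 0.14, and with protein-coding genes only Me1 over the genotypes was -0.00251. With each library left out, WT values ran from -0.12 to 0.20 for Acly, -0.21 to 0.66 for Fasn, -0.20 to 1.60 for Scd1, -0.0859 to 0.32 for Fads1 and -0.30 to 0.14 for Fads2. Me1 ran from -0.0728 to 0.35 in KO and from -0.0394 to 0.0865 over the genotypes, and Elovl6 in KO from -0.00811 to 0.50. The cause of these changes was not tested. In KO, Scd1 (1.04 to 1.97), Fasn (0.64 to 1.21), Acaca (0.47 to 0.75) and Scd2 (0.16 to 0.90) were above 0 in every alternative. The lowest value was under the alveolar type 2 score except for Acaca (library code). The library code also gave the highest value for Scd1 and Fasn. In KO, code and exposure cannot be told apart and all mice were female, so the code and sex settings do not test the KO values. Where an arm kept 1 library, it was assumed to vary like the others. No paired analysis was possible because mouse numbers are not shared between groups.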

Other observations

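Thrsp, a lipogenic regulator abundant in adipose tissue, was chosen here after its values were seen. It was at 7.88, 6.13 and 28.3 CPM in KO PFOA against 2.53 to 7.60 in KO vehicle, and at 4.06, 4.53 and 19.0 CPM in WT PFOA against 3.33 and 4.09 in WT vehicle. In KI it was at 4.33 to 8.12 CPM on vehicle and 3.77 to 6.81 on PFOA. The log2 fold change over the genotypes was 0.94 ± 0.38 (adjusted p = 0.537, edgeR). Its highest values were in KO PFOA 52 and WT PFOA 65, which also had 164 CPM each of adipocyte markers.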
